A study of Mus musculus with 11 samples.

Results

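Glycogen is the glucose store of hepatocytes, and 9 genes of its making, breakdown and control were followed in the livers of ovariectomized mice given follicle-stimulating hormone (FSH), a pituitary hormone that acts on the ovary, or saline. They are Ugp2, Gyg, Gys2 and Gbe1, which encode enzymes of synthesis, Pygl, which encodes the liver phosphorylase, and Ppp1r3b, Ppp1r3c, Ppp1r3d and Ppp1r3g, which encode subunits that bring protein phosphatase 1 (PP1) to glycogen. These 9 of the 36788 genes in the table were selected on their function, with earlier results of the same FSH and saline comparison in view. Their differences between the groups are therefore given as a description. The adjusted p-values printed for them are their rows in the fit of the whole table and are not independent evidence.

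All mice were WT C57BL/6 females over 12 weeks of age by their labels, ovariectomized (OVX) and kept on a high fat diet (HFD). The methods text gives a mixed background, only in part C57BL/6J, for the mice of the work as a whole, so the strain of these animals is uncertain. One group of 5 received daily FSH injections and the other group of 6 received saline, and the FSH-treated mice are numbered 1, 2, 3, 4 and 6. Because both groups lacked ovaries and ate the same diet, the comparison concerns FSH within that state, with no intact or chow-fed animals beside it in these data. Whole liver was treated with papain, a protease, before RNA extraction, and feeding state and hour of collection are not given in the sources used here. Values are counts per 1000000 reads (CPM), that is, the reads of a gene scaled to the same total in every liver. Between 11410596 and 19909327 reads were counted in the FSH livers and between 10801891 and 16077442 in the saline livers. The 7 hepatocyte markers summed to 96853 to 115538 CPM with FSH and 92236 to 118734 CPM with saline. All 7 were expressed in every liver, as the liver label requires. One marker each of the hepatocyte (Hnf4a), Kupffer cell (Cd68) and endothelial (Lyve1) lists was lower with FSH and one cholangiocyte marker (Krt7) was higher at a limma adjusted p under 0.05. The part of these differences in the glycogen genes was not tested. Adipocyte Lep and Retn, muscle Acta1 and Myh4, and acinar Pnlip and Prss2 had 0 reads in all 11 livers. With their other genes, the adipocyte list summed to 48.8 to 91.0 CPM with FSH and 53.7 to 89.6 CPM with saline. Only 1 of its 5 genes reached a mean of 0.5 CPM, so nearly all of that sum came from 1 gene. The muscle list summed to 0.959 to 1.87 CPM with FSH and 1.29 to 2.22 CPM with saline. It includes Pygm, a further glycogen gene, at 0.438 to 1.03 CPM with FSH and 0.837 to 1.67 CPM with saline. The acinar list summed to 0.51 to 1.21 CPM with FSH and 0.166 to 0.685 CPM with saline. These sums do not measure adipose or muscle tissue. In whole tissue, fewer cells of a type and less RNA per cell cannot be told apart.

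Glycogen is built from glucose units carried on UDP. UDP-glucose pyrophosphorylase, the product of Ugp2, makes UDP-glucose, glycogenin (Gyg) primes the chain on itself, glycogen synthase (Gys2 in liver) lengthens it, and the branching enzyme (Gbe1) adds the side chains that keep the particle soluble. Glycogen phosphorylase (Pygl in liver) releases glucose 1-phosphate from the chain ends. Phosphorylation turns synthase off and phosphorylase on, and PP1 reverses both when a targeting subunit holds it on the particle. Ppp1r3b encodes GL, the classical liver subunit, Ppp1r3c encodes PTG (protein targeting to glycogen), and Ppp1r3d and Ppp1r3g encode further members of the family.

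The promoter windows of 3 members that differed between the groups are shown because they are the sequences next to the starts of the genes whose transcripts moved furthest among those with a window. Windows of 300 bases, from 250 before to 50 after the RefSeq start on GRCm38.p6, were at hand for 7 of the 9 members. Ugp2 had 2 starts and therefore 2 windows, of which the upstream one is printed. Gys2 and Ppp1r3b had no window. Capitals mark the E-box CACGTG, and the windows of Ugp2 and Gbe1 have none. The window of Ppp1r3c lies on the minus strand at chr19:36736555-36736854, that of Ugp2 on the minus strand at chr11:21371218-21371517 and that of Gbe1 on the plus strand at chr16:70313699-70313998.
Ppp1r3c: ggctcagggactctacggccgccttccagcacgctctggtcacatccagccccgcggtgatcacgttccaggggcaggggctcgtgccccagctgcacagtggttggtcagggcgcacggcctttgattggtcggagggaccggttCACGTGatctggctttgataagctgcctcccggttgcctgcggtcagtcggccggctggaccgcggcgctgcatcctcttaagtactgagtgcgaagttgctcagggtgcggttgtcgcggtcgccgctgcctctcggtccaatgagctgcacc
Ugp2: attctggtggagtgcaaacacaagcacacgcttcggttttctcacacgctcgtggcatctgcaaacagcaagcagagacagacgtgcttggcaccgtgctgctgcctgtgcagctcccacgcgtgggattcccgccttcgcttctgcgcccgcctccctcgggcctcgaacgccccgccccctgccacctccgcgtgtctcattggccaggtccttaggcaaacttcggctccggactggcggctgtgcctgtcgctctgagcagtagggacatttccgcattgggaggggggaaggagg
Gbe1: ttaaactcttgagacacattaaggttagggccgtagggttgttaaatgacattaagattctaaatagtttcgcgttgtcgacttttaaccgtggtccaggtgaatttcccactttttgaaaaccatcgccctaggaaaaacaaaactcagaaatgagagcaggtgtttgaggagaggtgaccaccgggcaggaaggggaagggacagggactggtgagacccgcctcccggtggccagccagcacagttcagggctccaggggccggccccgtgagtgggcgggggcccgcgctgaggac
The E-box of Ppp1r3c began 104 bases before the start. An E-box was also found in the windows of Gyg, beginning 8 bases after the start, and of Ppp1r3d, beginning 226 bases before it, of which Gyg did not pass the test between the groups and Ppp1r3d was too low to be tested. Of 32851 mouse windows of this length, 7.15% held CACGTG. On both strands TGACGTCA (the cAMP response element, in 1.79% of all windows), TGTTTAC (a forkhead core, 3.65%), AGAACA (a short site of the glucocorticoid response element, 19.0%) and TTATGTAA (a D-box core, 0.938%) were searched as well, and none was present in the 8 windows of members. A match describes the letters only, and a motif outside these 300 bases would not be seen.

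Of the 8 members with a mean of at least 0.5 CPM, the transcript of Ppp1r3c was lower with FSH, those of Gys2, Gbe1 and Ugp2 were higher, and Gyg, Pygl, Ppp1r3b and Ppp1r3g did not pass the test. Differences were taken from limma on log2(CPM + 0.5) over the 12733 genes that reached this mean, with Benjamini-Hochberg adjustment over all of them. The words rose and fell are used for an adjusted p under 0.05, and the 2 thresholds of the study (that p and an absolute log2 fold change over 1) are named where they are met. At an adjusted p under 0.05, 3 members were higher, against 6.19% of all genes tested, and 1 was lower, against 4.41%. Past both thresholds 1 member was lower, against 0.942% of all genes, and 0 were higher, against 0.887%. The 2 groups did not overlap for 3 members, against 6.67% of all genes. The median log2 fold change was 0.18 over the 8 members and 0.02 over all genes tested. Ppp1r3d was too low to be tested.

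**Figure D1:**
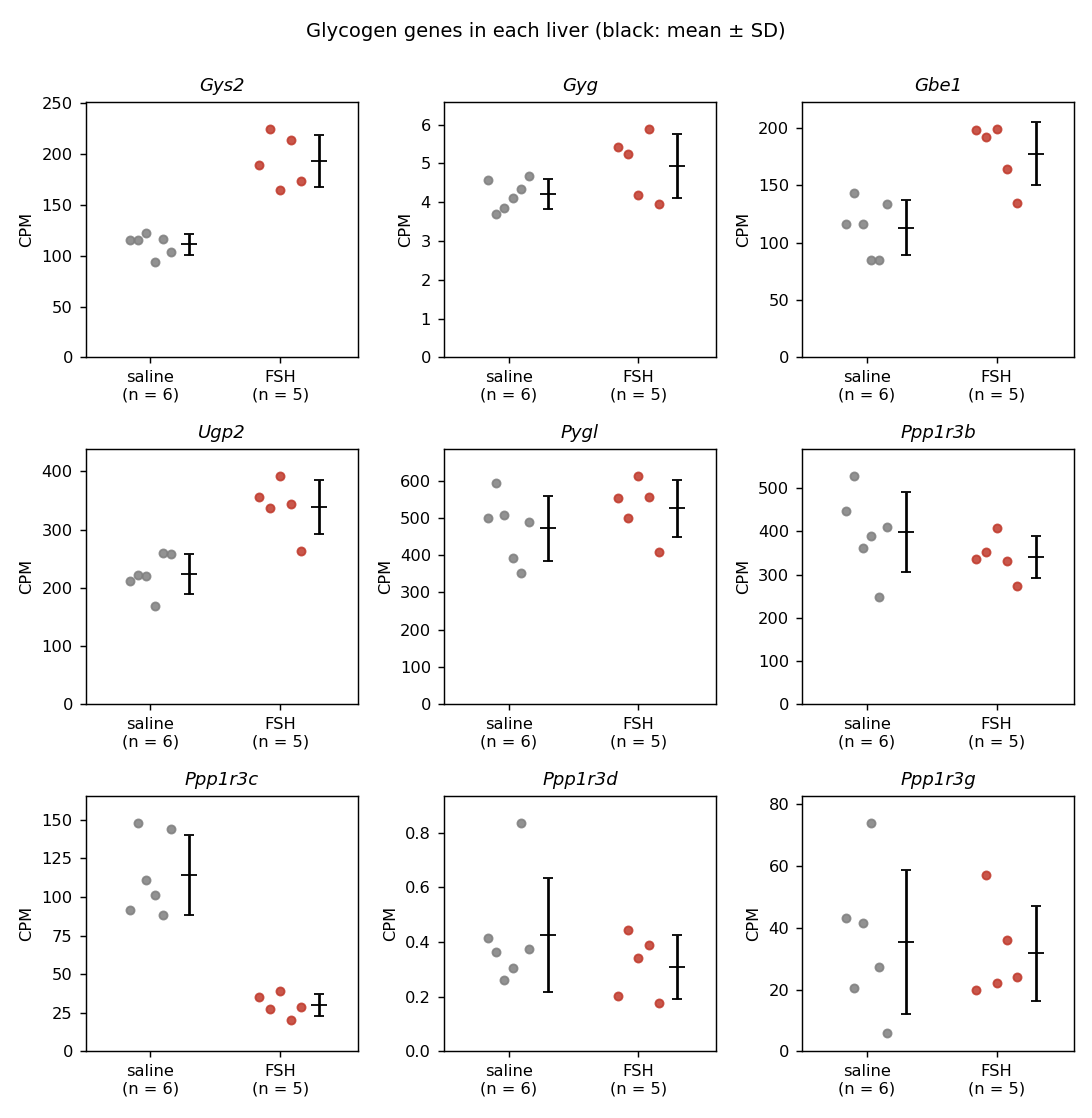
Each panel plots 1 gene, with CPM on an axis that starts at 0, the 6 saline livers in grey and the 5 FSH livers in red, and the black mark is the mean with its SD. The Ppp1r3c panel shows every FSH liver below 40 CPM and every saline liver above 88 CPM, while Gys2 and Ugp2 have every FSH liver above the saline livers.

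Gys2 lies at chr6:142422613-142473109 on the minus strand (GRCm38, GENCODE M21) and its product catalyses the step that commits glucose to the chain. It was measured at 189.2, 224.0, 164.8, 214.0 and 173.5 CPM in FSH livers 1, 2, 3, 4 and 6, and at 93.9 (lowest), 115.4 (median) and 122.6 CPM (highest) in the saline livers. The lowest FSH liver stood well above the highest saline liver, so the groups did not overlap. The means were 193.1 ± 25.5 CPM under FSH (SD, n = 5) and 111.3 ± 10.4 CPM under saline (SD, n = 6), a 1.74-fold difference. The log2 fold change was 0.79 ± 0.099 (SE) with a 95% interval of 0.58 to 1.00, at an adjusted p of 0.000167 in limma. Gys2 rose, but remained short of the study's fold-change threshold.

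Ugp2 lies at chr11:21321138-21371201 on the minus strand, with Gm12043 overlapping it on the other strand and Mir1933 on the same strand. The window printed above starts from a RefSeq start outside this GENCODE span, and the window not printed lies inside it. The counts in FSH livers 1, 2, 3, 4 and 6 came to 356.9, 337.3, 391.4, 344.2 and 263.9 CPM, while the saline livers spanned 168.4 to 260.0 CPM with a median of 221.7. The groups did not overlap, although FSH liver 6 lay only just above the highest saline liver. The means were 338.7 ± 46.7 CPM under FSH (SD, n = 5) and 223.6 ± 34.0 CPM under saline (SD, n = 6), and the log2 fold change was 0.60 ± 0.12 (SE), at an adjusted p of 0.00544 in limma. Ugp2, which supplies the UDP-glucose used by synthase, thus rose 1.51-fold.

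Gbe1 lies at chr16:70313949-70569716 on the plus strand, and its product makes the branch points. FSH livers 1, 2, 3, 4 and 6 held 197.8, 192.1, 198.7, 164.5 and 134.9 CPM, and the saline livers ranged from 84.8 through a median of 116.4 to 143.2 CPM. FSH liver 6 fell inside the saline range and the other FSH livers lay above it. The means were 177.6 ± 27.7 CPM under FSH (SD, n = 5) and 113.2 ± 24.2 CPM under saline (SD, n = 6), with a log2 fold change of 0.66 ± 0.15 (SE), at an adjusted p of 0.011 in limma. Gbe1 rose 1.57-fold.

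Gyg, at chr3:20122084-20155317 on the minus strand, encodes the protein on which a chain is started. It gave 5.42, 5.24, 4.19, 5.88 and 3.94 CPM in FSH livers 1, 2, 3, 4 and 6, and 3.71 to 4.66 CPM (median 4.23) in the saline livers. The ranges overlapped, with FSH liver 6 near the bottom of the saline range. From 44 to 108 reads per liver lay behind these values. The log2 fold change was 0.20 with a 95% interval of -0.07 to 0.46, at an adjusted p of 0.361 in limma, so a small difference in either direction could not be resolved.

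The product of Pygl, the breakdown enzyme (gene at chr12:70190811-70231488, minus strand, overlapped on the other strand by F730035M05Rik) releases the stored glucose. FSH livers 1, 2, 3, 4 and 6 gave 553.4, 499.6, 611.0, 556.7 and 409.5 CPM, and the saline livers 352.3 to 592.3 CPM with a median of 494.3. Most of the 2 ranges was shared. The means of 526.03 ± 76.1 CPM under FSH (SD, n = 5) and 472.2 ± 86.7 CPM under saline (SD, n = 6) gave a log2 fold change of 0.16 with a 95% interval of -0.12 to 0.45, at an adjusted p of 0.499 in limma. An increase of the size seen for Gys2 lies outside that interval.

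Among the targeting subunits, Ppp1r3c fell in the FSH livers. The gene lies at chr19:36731731-36736653 on the minus strand, with the E-box window printed above at its start, and no other annotated gene overlaps it. FSH livers 1, 2, 3, 4 and 6 held 34.9, 27.3, 39.3, 20.1 and 28.5 CPM, from 311 to 695 reads. The saline livers held 88.6 (lowest), 106.0 (median) and 147.6 CPM (highest), from 957 to 2317 reads. The highest FSH liver was below the lowest saline liver by a wide margin. The means of 30.01 ± 7.39 CPM under FSH (SD, n = 5) and 114.0 ± 25.9 CPM under saline (SD, n = 6) differed 3.80-fold, and the log2 fold change was -1.91 ± 0.17 (SE) with a 95% interval of -2.28 to -1.55, at an adjusted p of 1.38e-05 in limma. By p-value Ppp1r3c took place 14 among the 12733 genes tested, and it was the 1 member past both thresholds.

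Ppp1r3b, which encodes the classical liver subunit GL, is at chr8:35375739-35388139 on the plus strand and is overlapped on the other strand by Gm45469. In FSH livers 1, 2, 3, 4 and 6 it had 336.0, 352.9, 409.1, 331.9 and 273.2 CPM. In the saline livers it had 249.5 to 527.2 CPM with a median of 399.8, a range that enclosed all FSH values. The means were 340.6 ± 48.7 CPM under FSH (SD, n = 5) and 397.8 ± 92.5 CPM under saline (SD, n = 6), with a log2 fold change of -0.20 with a 95% interval of -0.53 to 0.14, at an adjusted p of 0.477 in limma. This interval does not meet that of Ppp1r3c.

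Ppp1r3g (chr13:35958839-35970388, plus strand, overlapped on the other strand by Gm30127) varied more between livers of a group than any other tested member. FSH livers 1, 2, 3, 4 and 6 gave 19.7, 56.9, 22.1, 36.0 and 24.1 CPM, and the saline livers 5.91 to 73.7 CPM with a median of 34.2. The coefficient of variation was 48.4% with FSH and 66.1% with saline, against 9.18% to 24.6% for the other tested members in the 2 groups. The log2 fold change was 0.08 with a 95% interval of -0.94 to 1.10, at an adjusted p of 0.943 in limma, and its sign turned when single livers were left out or when recovered reads were tested. A rise of 2-fold lies inside that interval.

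Ppp1r3d (chr2:178411206-178414472, minus strand) was close to the limit of detection. FSH livers 1, 2, 3, 4 and 6 held 4, 6, 6, 6 and 2 reads, and saline livers 1 to 6 held 5, 5, 3, 4, 9 and 6 reads. In CPM these were 0.309 ± 0.117 (SD, n = 5) and 0.425 ± 0.207 (SD, n = 6), and the ranges overlapped. Its mean over all livers, 0.373 CPM, was below the 0.5 CPM needed for the test, so no difference was assessed.

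To compare genes with each other, CPM was divided by transcript length in kb. With the longest principal transcript of each gene, saline livers ranked Pygl (167.2 ± 30.7 CPM per kb, SD, n = 6) first, then Ppp1r3b (90.7 ± 21.1) and Ugp2 (83.4 ± 12.7), then Gys2 (41.9 ± 3.93), Ppp1r3c (41.8 ± 9.50) and Gbe1 (39.8 ± 8.51), then Ppp1r3g (14.8 ± 9.75), Gyg (2.48 ± 0.227) and Ppp1r3d (0.130 ± 0.0634). The levels of Ppp1r3b and Ugp2 lay within their spread of each other, as did those of Gys2, Ppp1r3c and Gbe1. In FSH livers Pygl (186.2 ± 26.9 CPM per kb, SD, n = 5) stayed first, Ugp2 (126.2 ± 17.4) came next, and Ppp1r3b (77.7 ± 11.1), Gys2 (72.7 ± 9.58) and Gbe1 (62.4 ± 9.73) followed. Ppp1r3b and Gys2 lay within their spread of each other, and the mean of Gbe1 lay below each of them by more than 1 SD. Ppp1r3c, at 11.01 ± 2.71 CPM per kb, now lay beside Ppp1r3g, at 13.3 ± 6.44, above Gyg, at 2.91 ± 0.489, and Ppp1r3d, at 0.0946 ± 0.0357. The order depends on the length used. With all annotated exons of Pygl, 6895 bases in place of 2825, its level was 68.5 ± 12.6 CPM per kb with saline and 76.3 ± 11.04 with FSH. Ugp2 then stood at 72.9 ± 11.1 with saline and 110.4 ± 15.2 with FSH. Thus Ugp2 lay above Pygl with FSH, while with saline the 2 lay within their spread of each other.

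The targeting subunits were then set against each other within each liver, as the share of each in the summed CPM per kb of all 7 glycogen-targeting subunit genes (Ppp1r3a to Ppp1r3g), over all annotated exons. Ppp1r3b supplied 69.3 ± 3.64% (SD, n = 5) of this sum under FSH and 52.6 ± 4.49% (SD, n = 6) under saline. Ppp1r3c supplied 17.0%, 11.3%, 15.96%, 9.76% and 16.1% in FSH livers 1, 2, 3, 4 and 6, and 27.3% to 42.9% in the saline livers. The shares of these 2 subunits did not overlap between the groups. Ppp1r3g supplied 9.07% to 23.7% with FSH and 1.78% to 21.2% with saline, and the other 4 genes together stayed a small remainder. The sum itself was 79.0 ± 10.6 CPM per kb under FSH (SD, n = 5) and 120.7 ± 20.9 CPM per kb under saline (SD, n = 6), with overlap. A share rises when another falls, so the higher share of Ppp1r3b, whose own CPM did not pass the test, stands beside a lower sum. With principal transcript lengths the share of Ppp1r3c was 10.7 ± 2.48% with FSH and 28.2 ± 5.03% with saline. That of Ppp1r3b was then 74.8 ± 3.42% with FSH and 60.2 ± 4.45% with saline.

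**Figure D2:**
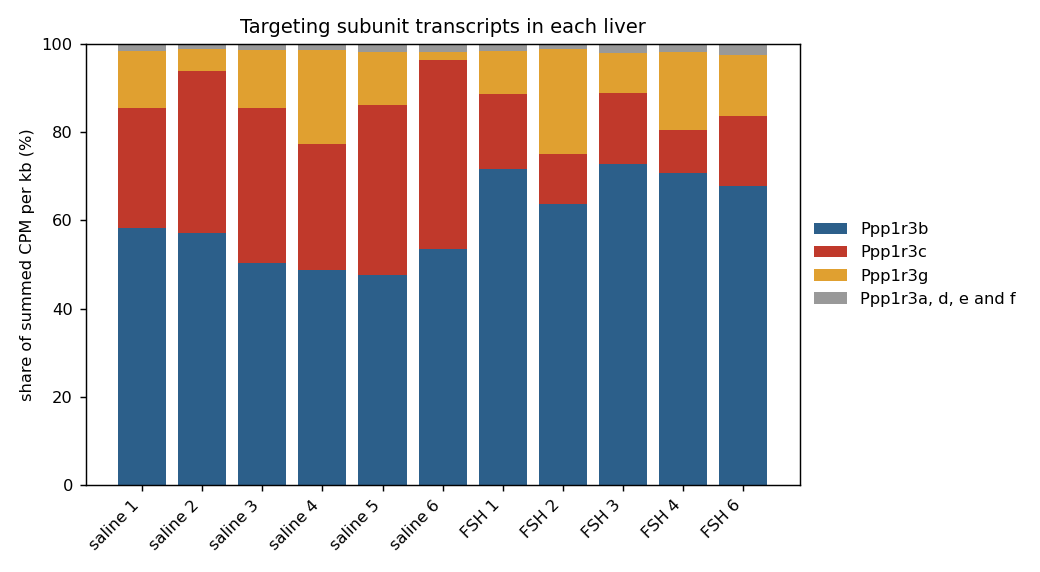
Each bar is 1 liver and divides the summed CPM per kb of the 7 targeting subunit genes into the percentage supplied by Ppp1r3b (blue), Ppp1r3c (red), Ppp1r3g (yellow) and the other genes (grey). The red segment is at most 17.0% in the 5 FSH livers and at least 27.3% in the 6 saline livers.

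Ratios of 2 genes within a liver do not depend on how livers are scaled to each other. The log2 ratio of Ppp1r3c to Ppp1r3b was -3.27, -3.69, -3.38, -4.05 and -3.26 in FSH livers 1, 2, 3, 4 and 6, and -2.29 to -1.49 in the saline livers. The FSH livers were all lower, with means of -3.53 ± 0.34 under FSH (SD, n = 5) and -1.80 ± 0.30 under saline (SD, n = 6). Thus for each Ppp1r3b read there were 0.061 to 0.104 Ppp1r3c reads with FSH and 0.205 to 0.355 with saline. The ratio of synthase to phosphorylase transcripts, Gys2 to Pygl, moved the other way, from -2.07 ± 0.26 under saline (SD, n = 6) to -1.44 ± 0.29 under FSH (SD, n = 5) on the log2 scale. FSH liver 3, at -1.89, lay below saline liver 5, at -1.60, and the other FSH livers lay above all saline livers. Both ratios come from the comparison that was known when the genes were selected, and no test is drawn from them.

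**Figure D3:**
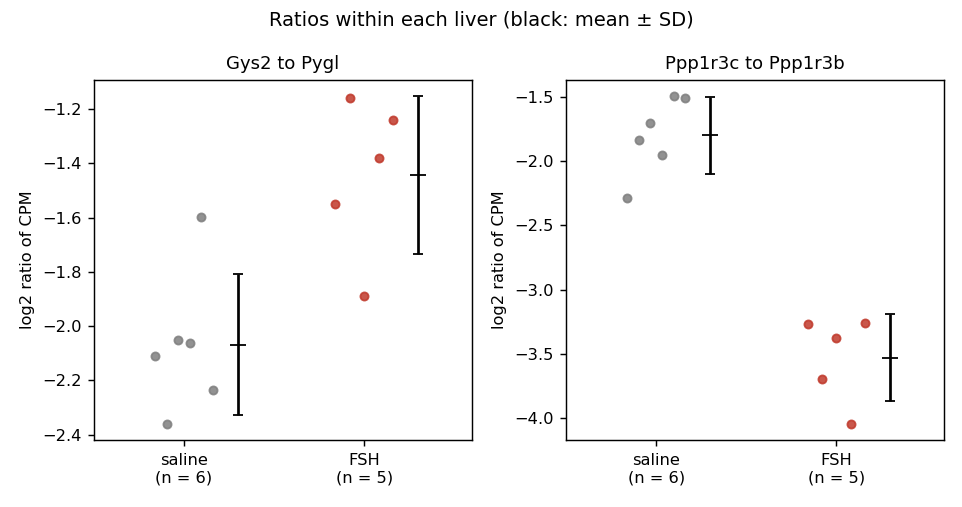
The log2 ratio of CPM is plotted for each liver, Gys2 to Pygl on the left and Ppp1r3c to Ppp1r3b on the right, with saline in grey, FSH in red, and the mean with SD in black; the axes do not start at 0. FSH and saline livers are apart on the right and share a stretch between -1.89 and -1.60 on the left.

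The rest of the pathway was read from a list of 22 further genes ordered by role, of which 19 were tested. At an adjusted p under 0.05, 2 of these 19 rose and 1 fell, where 6.19% and 4.41% of all genes tested did so, and the other 16 did not pass. Past both thresholds were 0 in limma, edgeR or DESeq2, with 7 of the 19 at an unadjusted p under 0.05 in limma, where 3196 of all 12733 genes were. Of the 19, 12 had a positive and 7 a negative log2 fold change, with a median of 0.07, against 0.02 over all genes tested. Pgm1, which interconverts glucose 1-phosphate and glucose 6-phosphate on the path to UDP-glucose, was measured at 306.3, 323.4, 278.4, 291.2 and 284.7 CPM in FSH livers 1, 2, 3, 4 and 6 and at 198.6 to 259.4 CPM (median 236.2) in the saline livers. Its groups did not overlap, and the log2 fold change was 0.35 ± 0.082 (SE), at an adjusted p of 0.0144 in limma. Phkb, a regulatory subunit of phosphorylase kinase, had 19.3 ± 2.79 CPM under FSH (SD, n = 5) and 14.96 ± 0.896 CPM under saline (SD, n = 6), and a log2 fold change of 0.35 ± 0.10 (SE), at an adjusted p of 0.0429 in limma. Phkb lost its call without any 1 of FSH mice 1, 2, 3 and 4 or saline mice 1, 2, 3, 4 and 5 (adjusted p of up to 0.132 in limma), and the list then held 2 calls. Without FSH mouse 6 the list held 5.

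The gene that fell in the wider list was Ppp1ca, which encodes a catalytic subunit of PP1, the enzyme that the targeting subunits carry. FSH livers 1, 2, 3, 4 and 6 gave 102.7, 115.3, 104.0, 106.7 and 116.3 CPM, and the saline livers 128.1 to 150.7 CPM with a median of 140.1. The groups did not overlap. The log2 fold change was -0.36 ± 0.074 (SE), at an adjusted p of 0.00664 in limma. Ppp1ca also serves many complexes with no part in glycogen. Its annotated partners on the other strand, Rad9a and AC109138.6, overlap it.

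**Figure D4:**
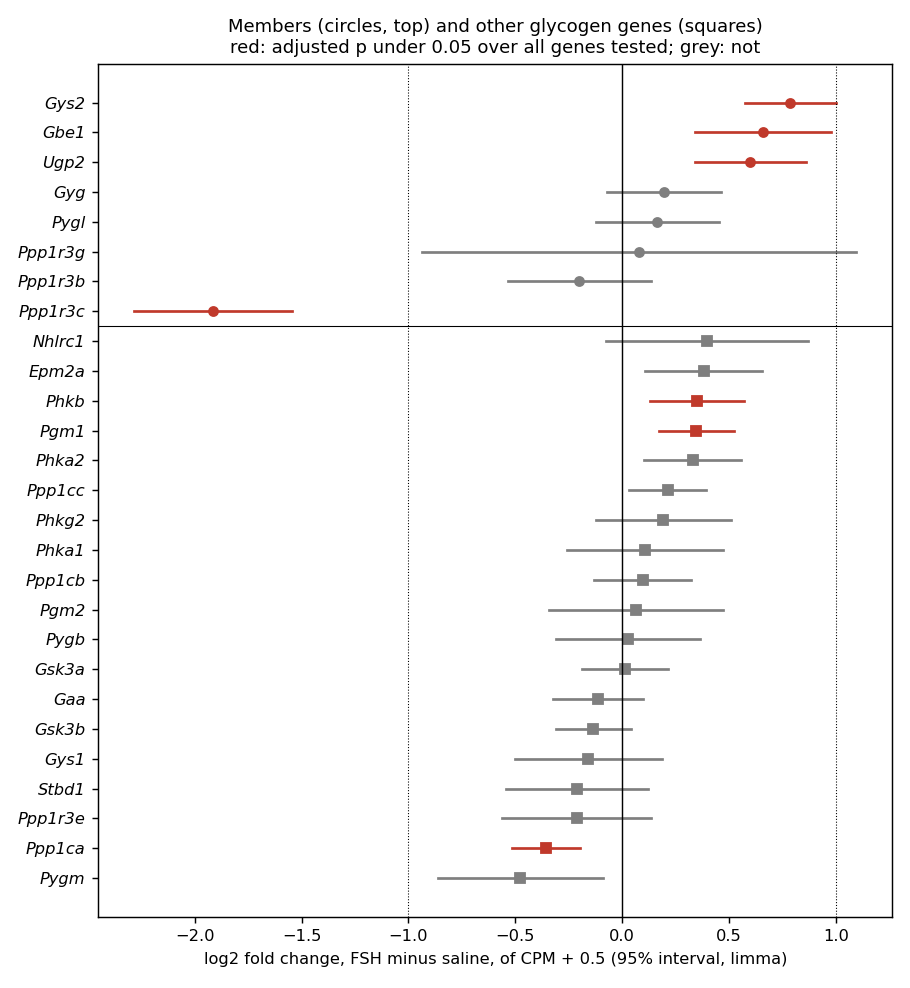
Points are log2 fold changes of FSH against saline on the log2(CPM + 0.5) scale with 95% intervals from limma, for the 8 tested members (circles, above the line) and the 19 tested further genes (squares), and red marks an adjusted p under 0.05. Ppp1r3c at -1.91 lies alone beyond the dotted line at -1, while the genes that rose lie between 0.35 and 0.79.

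Finally, the members were compared over the livers after subtracting the mean of each group, which leaves out the FSH and saline difference used to select them. Of the 28 pairs of tested members, 18 had a positive Pearson r. The closest were Gbe1 with Pygl (r = 0.90, permutation p = 0.00262, adjusted p = 0.0367 over the 28 pairs) and Pygl with Ppp1r3b (r = 0.85, permutation p = 0.0026, adjusted p = 0.0367). For these 2 pairs, correlations of ranks within groups were weaker and did not pass after adjustment, at rho = 0.75 (permutation p = 0.0219, adjusted p = 0.204) and rho = 0.64 (permutation p = 0.0623, adjusted p = 0.252). By ranks the closest pair was Gbe1 with Ppp1r3c (rho = 0.78, permutation p = 0.0138, adjusted p = 0.204, r = 0.66, permutation p = 0.0387, adjusted p = 0.229, and r = 0.60 without the 2 livers farthest from the median of Gbe1), which did not pass. For the first 2 pairs, without the 2 livers farthest from the median of the first gene, r was 0.78 and 0.64. These permutation tests over 11 livers were added after the values had been seen. Ppp1r3c and Ppp1r3g had the most negative Pearson value (r = -0.61, permutation p = 0.0409, adjusted p = 0.229, rho = -0.64, permutation p = 0.063, adjusted p = 0.252, and r = -0.69 without the 2 farthest livers), which did not pass. By ranks Ugp2 with Ppp1r3g was lower still (rho = -0.75, permutation p = 0.0219, adjusted p = 0.204) and did not pass either. FSH liver 6, the shallowest of its group, had the lowest value of its group for Gbe1, Ugp2, Pygl, Ppp1r3b and Gyg. Correlation with log2 depth within groups was 0.63 for Gbe1, 0.61 for Pygl, 0.56 for Ppp1r3b 0.59 for Ppp1r3c, 0.45 for Ugp2, 0.35 for Gyg, -0.28 for Gys2 and -0.50 for Ppp1r3g, as a description over the same 11 livers, and the part of depth in the pairs above was not tested.

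**Figure D5:**
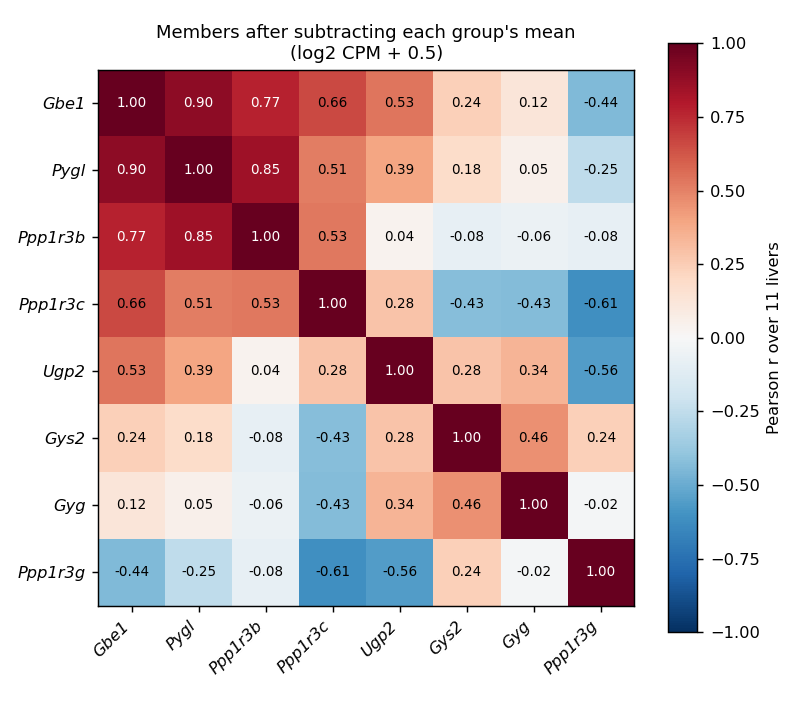
Each cell is the Pearson r of 2 members over 11 livers on log2(CPM + 0.5) after subtracting group means, from -1 (blue) to 1 (red). The pairs among Gbe1, Pygl and Ppp1r3b lie between 0.77 and 0.90 at the upper left, and Gys2 has no r above 0.46 with another member. Of those pairs, Gbe1 with Ppp1r3b did not pass the permutation test (adjusted p = 0.0762).

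Over all tested genes with a symbol, the 5 most like Ppp1r3c by the same measure were Dtwd2 (r = 0.91), Llph (r = 0.88), Ppp2r5e (r = 0.86), Fkbp3 (r = 0.86) and Crebl2 (r = 0.83). They were picked as the highest values of that whole set over 11 livers and carry no test. Ppp2r5e, which encodes a regulatory subunit of protein phosphatase 2A, had 28.9 ± 2.55 CPM under FSH (SD, n = 5) and 39.5 ± 4.39 CPM under saline (SD, n = 6), a log2 fold change of -0.44, at an adjusted p of 0.00836 in limma. The other 4 had log2 fold changes of -0.16 to 0.28 and limma adjusted p-values of 0.0554 or more.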

How the data were processed

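Liver RNA of 11 mice (5 FSH, 6 saline) was sequenced from NEBNext Ultra libraries with paired reads of 100 bp, from RNA with an integrity number over 8. The authors deposited CPM values for 36788 Ensembl identifiers, scaled to a library total of 1000000. The submitters' processing notes name FastQC 0.11.2, Trim Galore 0.3.3, cutadapt, STAR, RSEM and mm10. The annotation and the use of strand are not given in the sources used here, so reads of overlapping genes on opposite strands cannot be told apart. Dividing by the smallest step gave whole reads (within 0.05) for 100% of values, hence the depths. RSEM usually gives estimated counts that need not be whole, so which tool counted the reads is unclear. With 0 reads, up to 3 reads remain possible, and such limits cover counting error only. Symbols, lengths and positions came from GENCODE M21 (GRCm38), which named 35555 identifiers, and 12 rows that shared a symbol kept their identifier. Promoter windows came from RefSeq (GRCm38.p6), with 7 of 9 members matched.

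Testing covered genes whose mean reached 0.5 CPM and used limma 3.58.1 under R 4.3.3 on log2(CPM + 0.5) (eBayes with trend, Benjamini-Hochberg over 12733 genes). Fold changes on this scale understate low genes. edgeR 4.0.16 and DESeq2 1.42.0 on the recovered reads were among 22 alternative fits. Likeness pairs were tested with 100000 permutations within groups. The functions were tested on simulated data. One further gene was taken off the wider list and is not reported here. The members and lists were chosen with earlier results of these data known. All members are named, from the wider list each gene at an adjusted p under 0.05, and the 5 genes most like the member with the largest absolute fold change. Markers are those of the usual liver cell types and of adipose, muscle, blood and pancreas: of the genes that could be tested on the stellate (5 of 5), adipocyte (1 of 5), muscle (2 of 6), erythroid (4 of 5) and acinar (1 of 5) lists, 0 were called by limma. Mice are numbered in the labels, but nothing states separate extractions, so p-values measure the spread between these samples. Replicates of a group all differed from each other beyond sampling noise (lowest mean chi-square per gene 11.4).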

Additional observations from a re-analysis of the deposited data

Results flagged for a closer look

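Ppp1r3d in saline mouse 5, at 0.833 CPM (9 reads), stood apart from the other saline livers, whose nearest value was 0.415 CPM and lowest 0.262 CPM. The gap was larger than Dixon's 95% limit for 6 samples. It was 1 of 28 sets of values examined (the named genes and the 2 ratios, in each group), and chance alone flags about 1 in 20. Few reads lie behind the value, which is part of the Ppp1r3d mean, of its level per kb and of the shares of the targeting subunits given for saline livers.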

How the results depend on the processing

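Of the members, 4 passed an adjusted p under 0.05 and 1 passed both thresholds in each of the 22 alternative fits, and over these the log2 fold change lay between -2.02 and -1.78 for Ppp1r3c, 0.73 and 0.84 for Gys2, 0.52 and 0.69 for Ugp2, and 0.58 and 0.76 for Gbe1. The members that did not pass in the report passed in none of these fits. Leaving out single libraries put Pygl between 0.08 (without saline mouse 5) and 0.25 (without FSH mouse 6), Ppp1r3b between -0.33 (without saline mouse 5) and -0.11 (without saline mouse 2), and Gyg between 0.14 (without FSH mouse 4) and 0.27 (without FSH mouse 6). Ppp1r3g turned sign, to -0.16 without FSH mouse 2, -0.01 without saline mouse 2, -0.35 without saline mouse 6, -0.21 with edgeR and -0.21 with DESeq2. The cause was not tested. Leaving out 1 library at a time, the count over all genes at an adjusted p under 0.05 went from 1350 to between 803 (without FSH mouse 1) and 1659 (without FSH mouse 6), and the count in the wider glycogen list from 3 to between 2 and 5 (without FSH mouse 6). Phkb lost its call in 12 of the 22 fits. The log2 difference of the Gys2 to Pygl ratio stayed between 0.56 and 0.74 and that of Ppp1r3c to Ppp1r3b between -1.83 and -1.60 without single libraries. With the replicate number as a block, a fit that also drops saline mouse 5 because no FSH mouse bears its number, Ppp1r3c was at -1.98 (log2), at an adjusted p of 0.000185 in limma, Phkb lost its call (adjusted p = 0.116), and 1210 genes passed. Dropping saline mouse 5 alone gave the same folds, adjusted p-values of 3.29e-05 for Ppp1r3c and 0.0743 for Phkb, and 1237 genes. No consistent pairing by number was seen. Correlations of same-numbered deviations were 0.07, 0.36, 0.02, 0.14 and -0.07, and 1 of 5 numbers (mice 2, at 0.36) correlated best with itself. Whether the numbers pair the mice cannot be decided from 5 such values. With 2 to 9 reads per liver, Ppp1r3d was below the mean of 0.5 CPM needed for the main test, and no comparison is drawn from it.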
